A study of Mus musculus with 9 samples.

Results

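The T cell receptor complex and its coreceptors were followed through 10 genes: the CD3 chains Cd3d, Cd3e and Cd3g, the zeta chain Cd247, the coreceptors Cd4, Cd8a and Cd8b1, the kinase Lck, the costimulatory receptor Cd28 and the adaptor Themis. They were chosen by name from 21965 counted gene identifiers, and all 10 were counted and tested. Levels came from RNA sequencing of spleens of 16-week-old mice in 3 groups of 3 libraries. The BWF1 female group came from the NZB x NZW F1 cross, whose females the series title calls lupus-prone. The BWF1 male group held males of the same cross and the BALB/c female group held females of the inbred strain BALB/c, both titled as not prone to lupus. No treatment or engineered allele was labelled in any group. The NZB x NZW cross and BALB/c differ in genetic background throughout, so BALB/c females are another strain and not a littermate control. The title and design text describe splenocytes, whereas the sample labels describe macrophages sorted on CD11b and F4/80. In the counts, Itgam, which encodes CD11b, had 1, 37 and 22 counts summed over the BWF1 female, BWF1 male and BALB/c libraries, and lay between 0 and 6.66 CPM (counts scaled to a common library total). B cell genes summed to between 2571 and 3751 CPM per library, and the 10 genes themselves to between 305.9 and 655.3 CPM.

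On a T cell, the antigen-binding receptor chains have almost no tail inside the cell and signal through the CD3 and zeta chains, whose cytoplasmic tyrosine motifs are phosphorylated by Lck. CD4 binds MHC class II and marks helper and regulatory T cells, while CD8, built from an alpha and a beta chain on most cytotoxic T cells, binds MHC class I; both coreceptors carry Lck to the receptor. In mouse spleen some conventional dendritic cells also make CD4, others make the alpha chain of CD8, and natural killer cells use the zeta chain and Lck. No identifier of a T cell receptor alpha, beta, gamma or delta segment or constant region was among those counted (0 identifiers), so the antigen-binding chains themselves were not analysed here.

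The CD3 genes form a cluster on chromosome 9. Cd3g (minus strand, mm10 44969572 to 44980431) and Cd3d (plus strand, 44981786 to 44987339) point away from each other with 1354 bases between them. Cd3e (minus strand, 44998740 to 45009627) lies 11400 bases beyond Cd3d. Cd8b1 (71322788 to 71337494) and Cd8a (71373427 to 71379173) lie on the plus strand of chromosome 6 with 35932 bases between them, and Cd4 lies far off on the minus strand of the same chromosome (124864692 to 124888221). Because Cd3g and Cd3d share a short intergenic stretch and only Cd3g passed a test below, the 200 bases before each start are shown, with those of Cd3e and Cd8a, from RefSeq (build GRCm38.p6), 5′ to 3′ on the gene's strand. Capitals mark matches, on either strand, to the ETS core letters AGGAAG, the RUNX core letters TGTGGT, the TCF/LEF core letters CTTTGA, the GATA core letters AGATAA and the E-box, searched as the palindrome CAGCTG and as the form spelled CAGGTG.
Cd3d, chr9:44981586-44981785, plus strand: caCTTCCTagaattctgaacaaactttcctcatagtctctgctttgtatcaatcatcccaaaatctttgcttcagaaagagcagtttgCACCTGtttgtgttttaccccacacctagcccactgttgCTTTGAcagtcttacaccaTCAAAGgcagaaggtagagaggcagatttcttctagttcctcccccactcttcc
Cd3e, chr9:45009612-45009811, minus strand: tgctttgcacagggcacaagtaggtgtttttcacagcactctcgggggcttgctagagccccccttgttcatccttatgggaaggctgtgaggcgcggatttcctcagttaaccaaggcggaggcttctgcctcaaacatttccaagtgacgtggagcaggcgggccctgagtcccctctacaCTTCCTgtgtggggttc
Cd3g, chr9:44980432-44980631, minus strand: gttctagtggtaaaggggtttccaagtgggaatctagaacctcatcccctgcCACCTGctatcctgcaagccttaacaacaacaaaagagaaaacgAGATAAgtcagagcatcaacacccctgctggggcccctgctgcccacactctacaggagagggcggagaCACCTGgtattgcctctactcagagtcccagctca
Cd8a, chr6:71373227-71373426, plus strand: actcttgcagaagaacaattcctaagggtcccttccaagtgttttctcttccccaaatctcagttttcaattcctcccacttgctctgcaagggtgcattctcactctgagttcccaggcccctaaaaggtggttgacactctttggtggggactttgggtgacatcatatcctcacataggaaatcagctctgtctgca
The Cd3d stretch held 1 ETS, 2 TCF/LEF and 1 E-box match, the Cd3e stretch 1 ETS match, the Cd3g stretch 1 GATA and 2 E-box matches, and the Cd8a stretch 0 matches. Among 32851 stretches of the same length in the RefSeq table, 24.7% held the ETS letters, 11.2% RUNX, 10.9% TCF/LEF, 7.8% GATA and 23.1% an E-box, so these letters are common. The table matched 7 of the 10 genes. Cd28, Cd4 and Cd8b1 were not matched.

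Depth was low and uneven. Gene counts per library ran from 458608 to 4305003, of which the mitochondrial leucyl-tRNA synthetase gene Lars2 held between 42.3% and 76.6%. All CPM are on library sizes adjusted by TMM, a method that aligns the bulk of genes between libraries. On that scale 1 count was worth between 0.208 CPM in BWF1 male 3 and 2.21 CPM in BWF1 female 1. TMM factors lay between 0.53 in BWF1 male 1 and 1.40 in BALB/c female 2. Of the 4 file names that carry the tag RL, 2 belong to BWF1 females (1 and 3) and 2 to BWF1 males (1 and 3), whereas the other 5 libraries, all BALB/c among them, carry ORIG; what the tag means is not given in the sources used here. The design text gives n = 3 per group and no label ties each library to an animal of its own, so p-values measure the spread between these libraries. In bulk spleen RNA, fewer T cells and less RNA of a gene per T cell cannot be told apart.

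Summed over the 10 genes, the level averaged 347.5 ± 52.0 CPM across BWF1 females, 614.9 ± 47.3 CPM across BWF1 males and 464.7 ± 81.8 CPM across BALB/c females (SD, n = 3 each). Of the 10 genes, 6 were lower in BWF1 females than in BWF1 males at an adjusted p under 0.05 (edgeR quasi-likelihood test, Benjamini-Hochberg over 7719 genes), where 1.23% of all tested genes were called lower and 0.959% higher. All 10 log2 fold changes were negative (Cd3d, the smallest, turned to 0.033 on library size alone), with a median of −0.85 against 0.00064 over all genes tested. Groups did not overlap for 7 of the 10, compared with 18.7% of all tested genes. The 6 genes were Cd8a, Cd8b1, Cd3g, Cd247, Cd3e and Cd4.

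**Figure D1:**
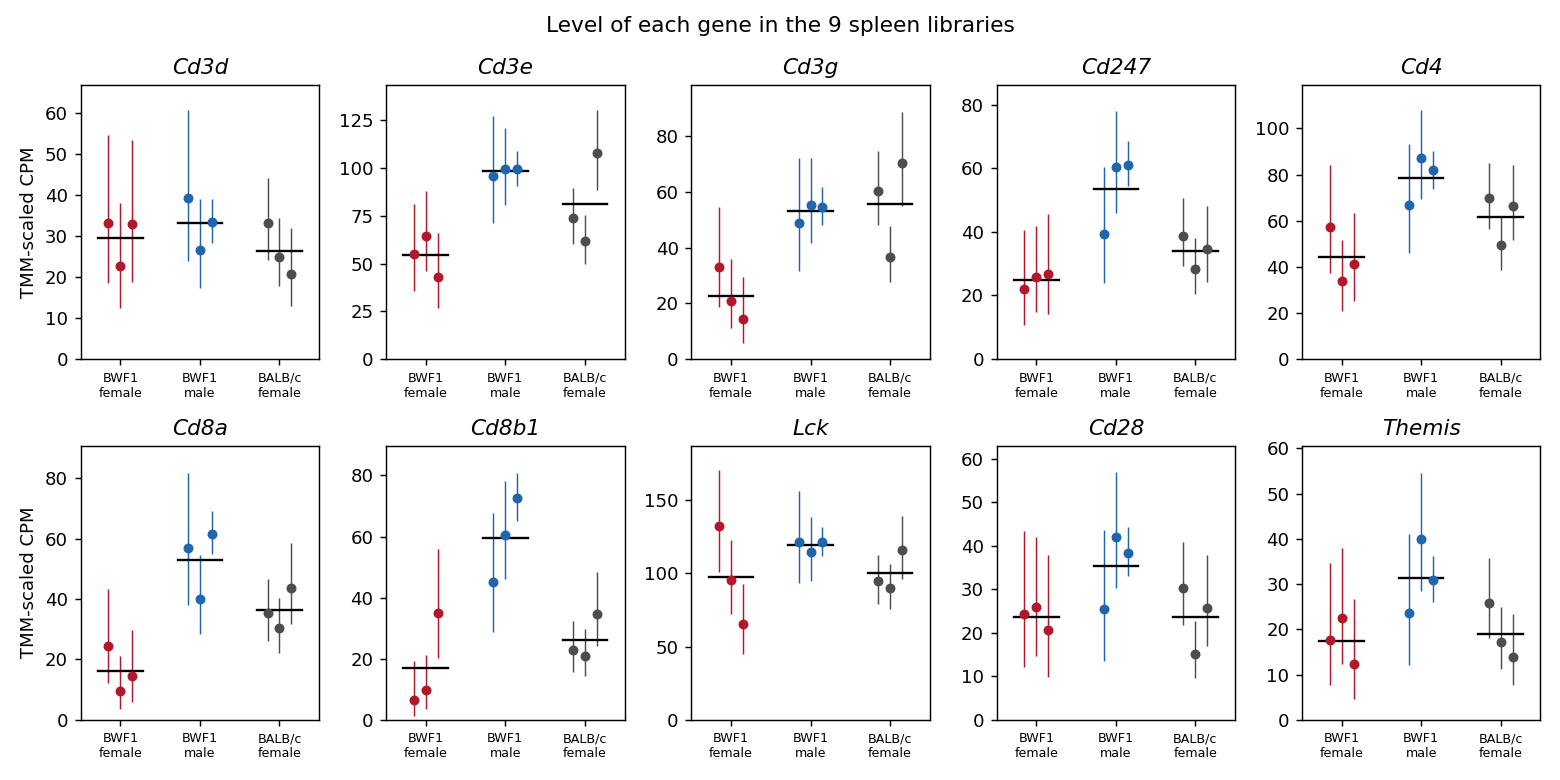
Level of each of the 10 genes in every library, in TMM-scaled CPM on a linear axis starting at 0, by group. Points are libraries, vertical lines their 95% Poisson intervals from the counts (counting error only), and horizontal bars group means. For Cd8a the 3 BWF1 females lie between 9.68 and 24.3 CPM, below every BWF1 male (40.0 to 61.6 CPM) and every BALB/c female (30.2 to 43.6 CPM).

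Among the CD3 chains, Cd3g encodes the gamma chain, which pairs with epsilon. It stood at 33.1, 21.0 and 14.4 CPM in BWF1 females 1 to 3, at 49.0, 55.4 and 54.8 CPM in BWF1 males 1 to 3 and at 60.4, 36.8 and 70.4 CPM in BALB/c females 1 to 3. Every BWF1 female was below every other library. The log2 fold change was −1.23 ± 0.27 (SE; adjusted p = 0.0141) against BWF1 males and −1.29 ± 0.27 (adjusted p = 0.00499) against BALB/c females. Between BWF1 males and BALB/c females it was −0.06 ± 0.24 (adjusted p = 0.94).

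Cd3e encodes the epsilon chain, shared by both CD3 pairs. Its level was 55.1, 64.5 and 43.1 CPM in BWF1 females, 96.1, 99.5 and 99.5 CPM in BWF1 males and 74.0, 61.8 and 108 CPM in BALB/c females. BWF1 females and BWF1 males did not overlap, and the 3 BWF1 males lay close together while BALB/c female 3 stood above the other two of its group. Cd3e fell in BWF1 females against BWF1 males, with a log2 fold change of −0.85 ± 0.21 (adjusted p = 0.0282), and had −0.57 ± 0.21 against BALB/c females (adjusted p = 0.139).

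Cd3d, the delta chain gene next to Cd3g, did not pass the test in any of the 3 comparisons. It had 33.1, 22.6 and 32.9 CPM in BWF1 females, 39.2, 26.7 and 33.3 CPM in BWF1 males and 33.1, 24.97 and 20.8 CPM in BALB/c females, so all 3 groups overlapped. Its log2 fold change in BWF1 females against BWF1 males was −0.16 ± 0.27, with a 95% interval of −0.68 to 0.36 (adjusted p = 0.827). Whether Cd3d and Cd3g differ in their change was not tested.

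Cd247 encodes the zeta chain, which carries most of the signalling motifs of the complex. It was measured at 22.1, 25.8 and 26.7 CPM in BWF1 females, 39.2, 60.5 and 61.2 CPM in BWF1 males and 38.8, 28.3 and 34.7 CPM in BALB/c females. No BWF1 female reached the lowest library of either other group, and BWF1 males lay above BALB/c females. The log2 fold change was −1.13 ± 0.24 in BWF1 females against BWF1 males (adjusted p = 0.0117), −0.44 ± 0.24 in BWF1 females against BALB/c females (adjusted p = 0.374) and 0.69 ± 0.22 in BWF1 males against BALB/c females (adjusted p = 0.0876). Of the exon bases of Cd247, 56.4% overlap Pou2f1, a transcription factor gene on the opposite strand that was counted too. The strand setting of the counting is not given, so how reads on the shared bases were assigned, to either gene or to neither, is not known. Pou2f1 had a log2 fold change of 0.16 ± 0.20 in BWF1 females against BWF1 males (adjusted p = 0.751).

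Of the coreceptor genes, Cd8a, the CD8 alpha chain, had 24.3, 9.68 and 14.4 CPM in BWF1 females (11, 6 and 7 counts), 56.9, 40.0 and 61.6 CPM in BWF1 males (29, 39 and 296 counts) and 35.2, 30.2 and 43.6 CPM in BALB/c females (49, 46 and 44 counts). BWF1 females overlapped neither other group. Cd8a fell 3.36-fold against BWF1 males, a log2 fold change of −1.75 ± 0.29 (adjusted p = 0.00121), and 2.29-fold against BALB/c females, −1.20 ± 0.29 (adjusted p = 0.0171). In BWF1 males against BALB/c females it was 0.55 ± 0.25 (adjusted p = 0.263).

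Cd8b1, the CD8 beta chain, which unlike the alpha chain is largely confined to T cells, varied most among BWF1 females. They held 3, 6 and 17 counts, or 6.62, 9.68 and 34.9 CPM. BWF1 males held 45.1, 60.5 and 72.7 CPM, and BALB/c females 23.0, 21.0 and 34.7 CPM. BWF1 males stood above every other library, and BWF1 female 3 lay just above the BALB/c range while the other two BWF1 females lay below it. The log2 fold change was −1.83 ± 0.36 in BWF1 females against BWF1 males (adjusted p = 0.0055; −2.85 without BWF1 female 3, and adjusted p = 0.0544 with robust dispersion) and 1.21 ± 0.32 in BWF1 males against BALB/c females (adjusted p = 0.0298). In BWF1 females against BALB/c females it was −0.62 ± 0.37 (adjusted p = 0.415), and without BWF1 female 3 it became −1.63 (adjusted p = 0.00507).

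Cd4 had 57.3, 33.9 and 41.1 CPM in BWF1 females, 66.7, 87.2 and 81.8 CPM in BWF1 males and 69.7, 49.3 and 66.4 CPM in BALB/c females. All BWF1 females lay below all BWF1 males, and BWF1 female 1 lay within the BALB/c range. Cd4 fell 1.80-fold against BWF1 males, with a log2 fold change of −0.85 ± 0.22 (adjusted p = 0.036). It was −0.49 ± 0.22 in BWF1 females against BALB/c females (adjusted p = 0.239) and 0.36 ± 0.20 in BWF1 males against BALB/c females (adjusted p = 0.412).

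Lck, the kinase that coreceptors carry, was the most abundant of the 10 per kilobase of exon, with a mean of 36.1 CPM per kb over the groups. Exon length here is the union of all annotated exons of a gene, so the order per kilobase depends on the annotation. It had 132.3, 95.2 and 65.7 CPM in BWF1 females, 121.6, 114.8 and 121.2 CPM in BWF1 males and 94.9, 90.0 and 116.0 CPM in BALB/c females. BWF1 female 1 was the highest library and BWF1 female 3 the lowest, so BWF1 females spanned both other groups. The log2 fold change against BWF1 males was −0.29 ± 0.20, with a 95% interval of −0.68 to 0.099 (adjusted p = 0.504).

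Cd28, the receptor for costimulatory B7 molecules, and Themis, an adaptor needed in thymocytes for positive selection, were the least abundant per kilobase, at 4.49 and 1.94 CPM per kb. Cd28 had 24.3, 25.8 and 20.5 CPM in BWF1 females, 25.5, 42.0 and 38.3 CPM in BWF1 males and 30.2, 15.1 and 25.8 CPM in BALB/c females. Themis had 17.6, 22.6 and 12.3 CPM in BWF1 females, 23.5, 40.0 and 30.8 CPM in BWF1 males and 25.9, 17.1 and 13.9 CPM in BALB/c females. For Themis the BWF1 females lay just below the BWF1 males, without overlap, whereas the Cd28 ranges met. Their log2 fold changes in BWF1 females against BWF1 males were −0.61 ± 0.29 for Cd28 (adjusted p = 0.288) and −0.84 ± 0.31 for Themis (adjusted p = 0.167). In BWF1 females against BALB/c females they were 0.0015 ± 0.29 for Cd28 and −0.11 ± 0.32 for Themis.

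Against BALB/c females, fewer of the genes were called. The share of alignments that fell in counted genes was 1.29% to 2.05% in BWF1 libraries and 2.13% to 2.82% in BALB/c libraries, without overlap; its part in these comparisons was not tested. In BWF1 females 2 of 10 were called lower (Cd3g and Cd8a), where 2.03% of all tested genes were lower and 1.79% higher, and the median log2 fold change was −0.47, with 3 of 10 genes not overlapping (21.2% of all tested genes). In BWF1 males 1 of 10 was called higher (Cd8b1), where 1.67% of all tested genes were higher and 1.85% lower, with a median of 0.45 and 2 of 10 not overlapping (23.5% of all tested genes). On TMM-scaled libraries 9 of 10 fold changes were positive in BWF1 males against BALB/c females, but on library size alone Cd3d, Cd3e, Cd4 and Lck turned negative. The 3 comparisons share libraries and are not independent of each other.

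**Figure D2:**
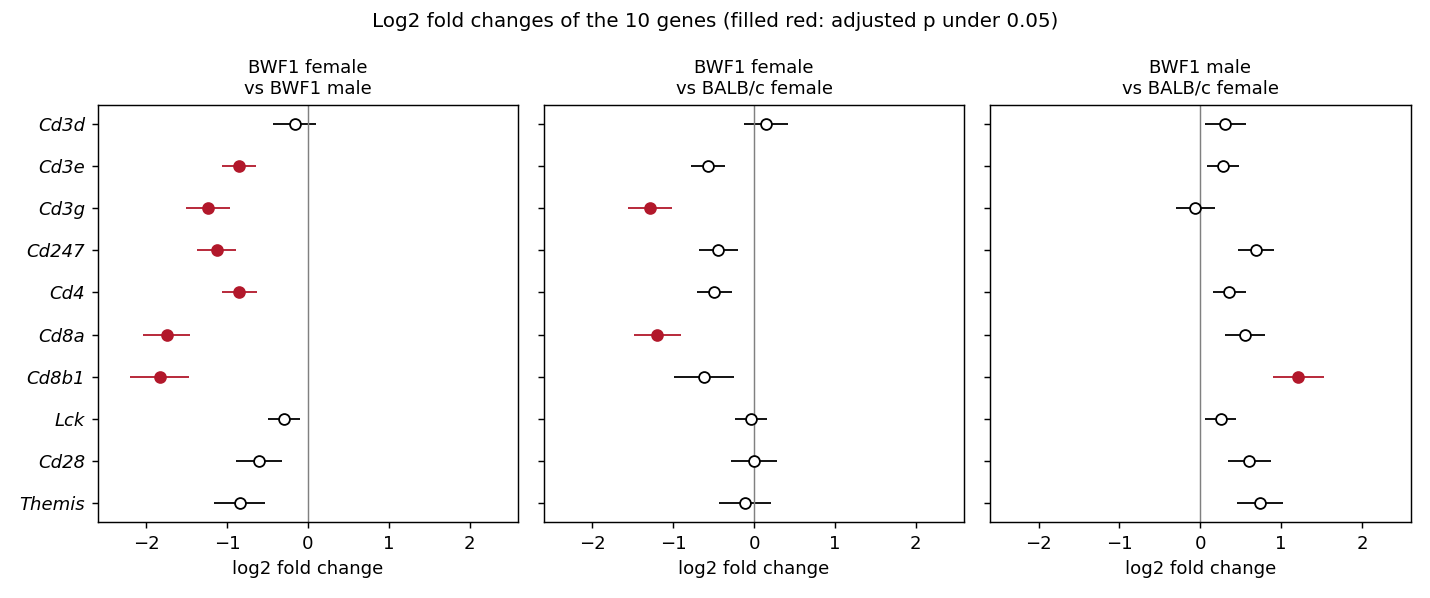
Log2 fold change of each gene in the 3 comparisons, with horizontal lines of 1 standard error; filled red points passed an adjusted p under 0.05 (edgeR). In BWF1 females against BWF1 males all 10 points lie below 0 and 6 are filled, with Cd8b1 (−1.83) and Cd8a (−1.75) farthest from 0.

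These calls rested on few libraries. Cd8a against BWF1 males was called in all 19 of the 20 alternative fits that gave it an adjusted p, and Cd3g against BALB/c females in all 20. The other members lost the call in at least 1 fit. Leaving out BWF1 male 3, by far the deepest library, left 2 of the 6 calls against BWF1 males (Cd8a and Cd8b1), while leaving out BWF1 male 2 or BWF1 female 3 left 3. On library size alone, without TMM, the same 2 calls (Cd8a and Cd8b1) were left. The Cd8b1 call in BWF1 males against BALB/c females ended without BWF1 male 2, BWF1 male 3, BALB/c female 1 or BALB/c female 2, and Cd8a in BWF1 females against BALB/c females lost its call without BWF1 female 2 (adjusted p = 0.118) or BALB/c female 3 (adjusted p = 0.089). Within the libraries tagged RL, all 10 genes were lower in BWF1 females than in BWF1 males with a median log2 difference of −0.91, and within those tagged ORIG, 1 library against 1, the median was −0.997.

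To set Cd4 against Cd8a and Cd8b1 free of library scaling, their counts were compared within each library. Cd4 made up 65.0%, 63.6% and 45.5% of the coreceptor counts (Cd4 plus Cd8a plus Cd8b1) in BWF1 females 1 to 3, from 40, 33 and 44 counts. In BWF1 males 1 to 3 the share was 39.5%, 46.5% and 37.9%, from 86, 183 and 1038 counts. In BALB/c females 1 to 3 it was 54.5%, 49.0% and 45.9%, from 178, 153 and 146 counts. Exact binomial 95% intervals were wide at these depths, 48.3% to 79.4% in BWF1 female 1 and 34.9% to 40.9% in BWF1 male 3, and BWF1 female 3 lay inside the BWF1 male range. As log2 ratios of Cd4 to the CD8 genes, the means were 0.47 ± 0.63 among BWF1 females, −0.51 ± 0.27 among BWF1 males and −0.01 ± 0.25 among BALB/c females (SD, n = 3 each).

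By exact two-sided permutation tests, for which 3 against 3 allows no p under 0.1, the log2 ratio of Cd4 to the CD8 genes differed by 0.97 between BWF1 females and BWF1 males (p = 0.2), by 0.48 between BWF1 females and BALB/c females (p = 0.4) and by −0.50 between BWF1 males and BALB/c females (p = 0.2). Of 9 ratio comparisons in all, the lowest Benjamini-Hochberg adjusted p was 0.45. An exact permutation F test of the ratio over the 3 groups gave F = 4.04 and p = 0.0714, where 0.003571 is the smallest p that 1680 divisions can give. The ratio thus did not pass 0.05 with all 9 libraries. Without BWF1 female 3 the exact permutation F test gave p = 0.0107, and with Cd8a alone in place of both CD8 genes p = 0.0464. These were the only 2 alternatives of this F test under 0.05. With Cd8b1 alone, with other pseudocounts or with any other library left out, it did not pass.

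Measured against the CD3 genes (Cd3d, Cd3e and Cd3g together), Cd4 stood at 0.473, 0.313 and 0.455 counts per CD3 count in BWF1 females, 0.362, 0.480 and 0.436 per CD3 count in BWF1 males and 0.416, 0.399 and 0.333 per CD3 count in BALB/c females. All groups overlapped, and the log2 difference was −0.04 between BWF1 females and BWF1 males (exact p = 0.8). The CD8 genes stood at 0.255, 0.179 and 0.545 counts per CD3 count in BWF1 females, 0.553, 0.554 and 0.716 per CD3 count in BWF1 males and 0.348, 0.415 and 0.393 per CD3 count in BALB/c females. Every BWF1 male was above every other library, though BWF1 female 3 came close to the lowest BWF1 male. The log2 difference in CD8 per CD3 was −1.02 between BWF1 females and BWF1 males and 0.65 between BWF1 males and BALB/c females, both at the smallest exact p of 0.1, and −0.37 between BWF1 females and BALB/c females (exact p = 0.5).

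**Figure D3:**
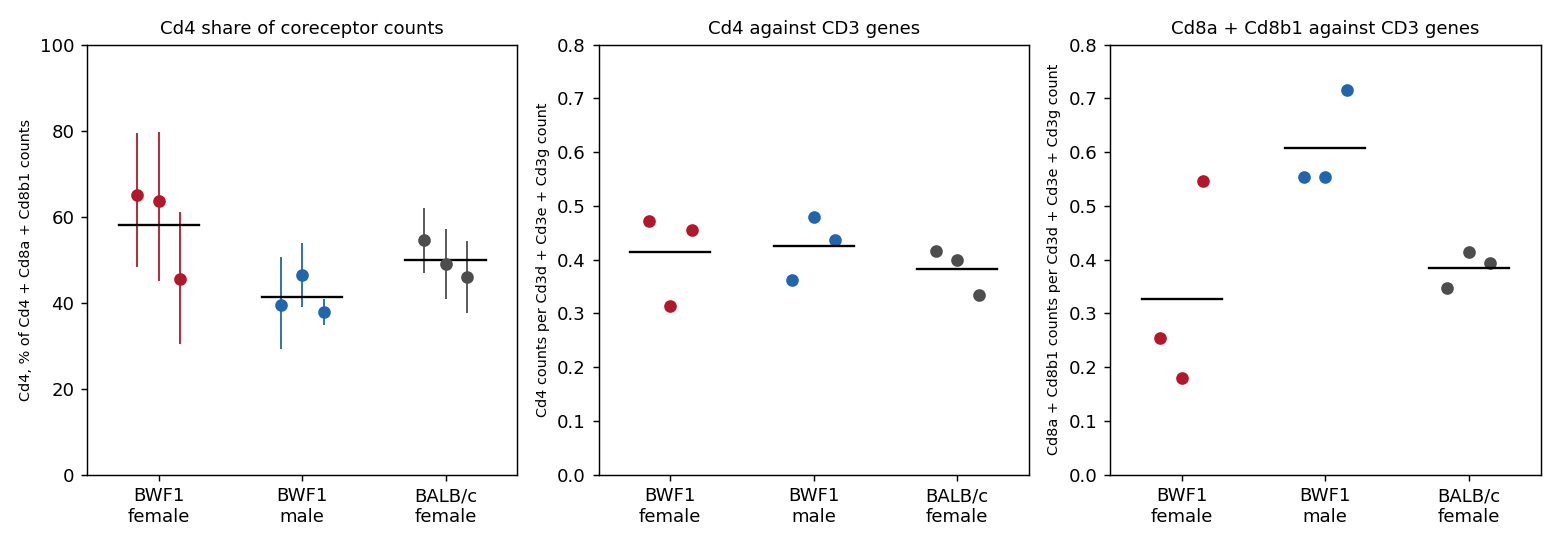
Within-library comparisons by group: Cd4 as a percentage of Cd4 plus Cd8a plus Cd8b1 counts (left, with exact binomial 95% intervals), Cd4 counts per CD3 count (middle) and Cd8a plus Cd8b1 counts per CD3 count (right). Points are libraries and horizontal bars group means; BWF1 females 1 and 2 lie at 65.0% and 63.6% Cd4, while BWF1 female 3, at 45.5%, lies among the BWF1 males.

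Balance between the CD8 chains also varied. Cd8b1 made up 3 of 14, 6 of 12 and 17 of 24 CD8 counts in BWF1 females 1 to 3, or 21.4%, 50% and 70.8%. In BWF1 males it made up 44.2%, 60.2% and 54.1%, and in BALB/c females 39.5%, 41.0% and 44.3%. The BWF1 female values rest on few counts, with exact 95% intervals of 4.66% to 50.8% in female 1 and 48.9% to 87.4% in female 3. These intervals met only at their ends. Intervals that meet do not show that shares are alike, and the difference between these libraries was not tested.

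Other genes of the T cell were read from lists that share 0 members with the 10. Some genes stand in more than 1 list, so the counts of the lists are not separate from each other. Beside every list stand the shares of all tested genes given above, 0.959% to 2.03% called in any 1 direction of a comparison. In proximal receptor signalling, 2 of 32 tested genes fell in BWF1 females against BWF1 males: Zap70, the kinase recruited to phosphorylated zeta and CD3 chains (19.7 ± 4.51 against 42.8 ± 5.92 CPM, SD, n = 3 each; adjusted p = 0.0404), and the adaptor Skap1 (20.3 ± 6.76 against 41.9 ± 5.21 CPM; adjusted p = 0.0443). The list's median log2 fold change was −0.11, and DESeq2, limma-voom and library size alone each called 0 of 32 there, with 7 at an unadjusted p under 0.05 by edgeR. In that comparison DESeq2 gave no adjusted p to 7 of the 10 genes, and a gene without one cannot be called. How many genes of this and the later lists had one was not counted, so DESeq2 counts there may be low for that reason. Against BALB/c females, the phosphatase gene Ptpn22, a brake on Lck and Zap70, was the 1 gene of 32 called in BWF1 females and was higher (79.0 ± 7.37 against 45.7 ± 12.8 CPM; adjusted p = 0.0343). In BWF1 males against BALB/c females, Zap70 was the 1 gene of 32 called and was higher (adjusted p = 0.0402). Of all tested genes, 1.79% were called higher and 2.03% lower in BWF1 females against BALB/c females. In BWF1 males these shares were 1.67% and 1.85%. A call of 1 gene in 32 is near these shares and says little about the list. In each of these comparisons with BALB/c females DESeq2 and library size alone called 0 of 32, while limma-voom called 1 in BWF1 females and 3 in BWF1 males. Many genes of this list are also used by B cells and other leukocytes.

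T cell surface and costimulatory genes had 3 of 14 tested members lower in BWF1 females than in BWF1 males. Thy1, a surface glycoprotein of mouse T cells, stood at 46.4 ± 10.7 against 102.2 ± 6.33 CPM (adjusted p = 0.00236), and Il7r, the interleukin-7 receptor alpha chain that keeps resting T cells alive, at 33.3 ± 6.15 against 68.6 ± 4.47 CPM (adjusted p = 0.0159). Against BALB/c females, 2 of 14 fell in BWF1 females, Thy1 and the SLAM family receptor Slamf6. On library size alone 0 of 14 were called in either of these comparisons. In BWF1 males against BALB/c females 2 of 14 rose, Cd7 and Il7r, and Slamf6 fell. Among T lineage transcription factors, Tcf7 (93.1 ± 18.0 against 153.6 ± 34.9 CPM; adjusted p = 0.0404) and Bcl11b (47.7 ± 9.20 against 81.7 ± 11.5 CPM; adjusted p = 0.0442) were the 2 of 13 that fell in BWF1 females against BWF1 males, where DESeq2 called 1 and library size alone 0. By edgeR, 0 of 13 were called in either comparison with BALB/c females. Unadjusted p-values under 0.05 numbered 1 in BWF1 females and 5 in BWF1 males there, DESeq2 called 0 in each, and limma-voom called 0 in BWF1 females and 3 in BWF1 males.

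Of the naive T cell and homing genes, 3 of 7 tested fell in BWF1 females against BWF1 males (0 of 7 on library size alone) and 2 of 7 against BALB/c females. The 3 include Il7r, which stands in the surface list too and was counted in both. Ccr7, the chemokine receptor of T zone homing, stood at 63.5 ± 17.1 CPM in BWF1 females against 144.1 ± 13.4 in BALB/c females (adjusted p = 0.000624). B cells also express Ccr7.

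Genes associated with either T cell subset were set beside the coreceptors. Of the CD4-associated list, 0 of 6 tested passed in any comparison, whether with edgeR, with DESeq2 or with limma-voom (before adjustment, edgeR gave p under 0.05 to 2, 1 and 4 of them in BWF1 females against BWF1 males, BWF1 females against BALB/c and BWF1 males against BALB/c), with summed levels of 221.0 to 244.8 CPM in BWF1 females, 247.1 to 292.2 CPM in BWF1 males and 239.9 to 252.8 CPM in BALB/c females. Cxcr5, a chemokine receptor that B cells also express, was the largest part of each sum, at 117.0 to 145.6 CPM in BWF1 females, 141.2 to 178.4 CPM in BWF1 males and 118.6 to 135.8 CPM in BALB/c females. Of the CD8-associated list, 2 of 7 fell in BWF1 females against BWF1 males, where DESeq2 and library size alone each called 1. They were the chemokine Ccl5 (17.1 ± 2.53 against 65.0 ± 18.7 CPM, adjusted p = 0.000174) and the cytotoxic granule gene Nkg7 (11.2 ± 2.76 against 38.8 ± 6.69 CPM, adjusted p = 0.00124). Natural killer cells also express both. In BWF1 females against BALB/c females 1 of 7 fell (Ccl5), but 4 of 7 fold changes were positive, with a median log2 fold change of 0.059. In BWF1 males against BALB/c females 1 of 7 rose (Nkg7), and 7 of 7 fold changes were positive. DESeq2 and library size alone called 0 there, and limma-voom 4.

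Markers of other cell types differed between the groups in some comparisons and not in others. Natural killer cell genes were lower in BWF1 females than in BWF1 males for 4 of 9 tested, with sums of 188.9 to 233.8 against 472.7 to 551.1 CPM and Prf1, the pore-forming perforin, at 10.6 ± 5.21 against 60.0 ± 8.34 CPM (adjusted p = 9.044e-06). BALB/c females summed to 248.4 to 297.4 CPM, with Klra4 and Klra8 at 0 counts there, and 4 of 9 were higher in BWF1 males than in that group, the same comparison in which Cd8b1 was higher. Macrophage and monocyte genes were lower for 6 of 13, with sums of 258.1 to 287.4 CPM in BWF1 females, 553.7 to 784.5 CPM in BWF1 males and 409.4 to 485.1 CPM in BALB/c females, and 6 of 13 were higher in BWF1 males than in BALB/c females. Conventional dendritic cell genes were lower for 1 of 7 (Sirpa), with sums of 435.3 to 500.6 CPM in BWF1 females, 496.8 to 547.2 CPM in BWF1 males and 513.2 to 561.9 CPM in BALB/c females. B cell genes were called by edgeR for 0 of 11 between BWF1 females and BWF1 males, with sums of 2571 to 2776 against 2683 to 3308 CPM. In that comparison 4 had an unadjusted p under 0.05, and DESeq2 and limma-voom called 1 each. BALB/c females summed higher, to 3639 to 3751 CPM. Against them, edgeR called 4 of 11 B cell genes lower in BWF1 females and 1 of 11 lower in BWF1 males. Plasmacytoid dendritic cell genes were called for 0 of 6 there by edgeR, DESeq2 and limma-voom, with 0 at an unadjusted p under 0.05. Erythroid genes varied widely within groups (832.5 to 2445 CPM in BWF1 females, 181.6 to 1351 CPM in BWF1 males and 1440 to 4356 CPM in BALB/c females), with 1 of 10 (Epb42) called higher in BWF1 females, against BWF1 males, where 7 had an unadjusted p under 0.05, limma-voom called 6 and library size alone 7. In BWF1 males against BALB/c females, the comparison in which Cd8b1 was called, 8 of 10 erythroid genes were lower, with a median log2 fold change of −2.56. Immediate early and heat shock genes, which respond to tissue handling among other things, were lower for 3 of 16 and higher for 1 of 16 in BWF1 females against BWF1 males, with 10 at an unadjusted p under 0.05. Fos stood there at 67.8 ± 25.2 against 135.3 ± 16.9 CPM, Hspa8 at 233.7 ± 29.3 against 430.2 ± 119.6 CPM and Hspa1b at 95.8 ± 13.0 against 50.1 ± 16.1 CPM. Against BALB/c females, 14 of 16 were lower in BWF1 females and 7 of 16 in BWF1 males. What part any of these has in the T cell values was not tested.

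**Figure D4:**
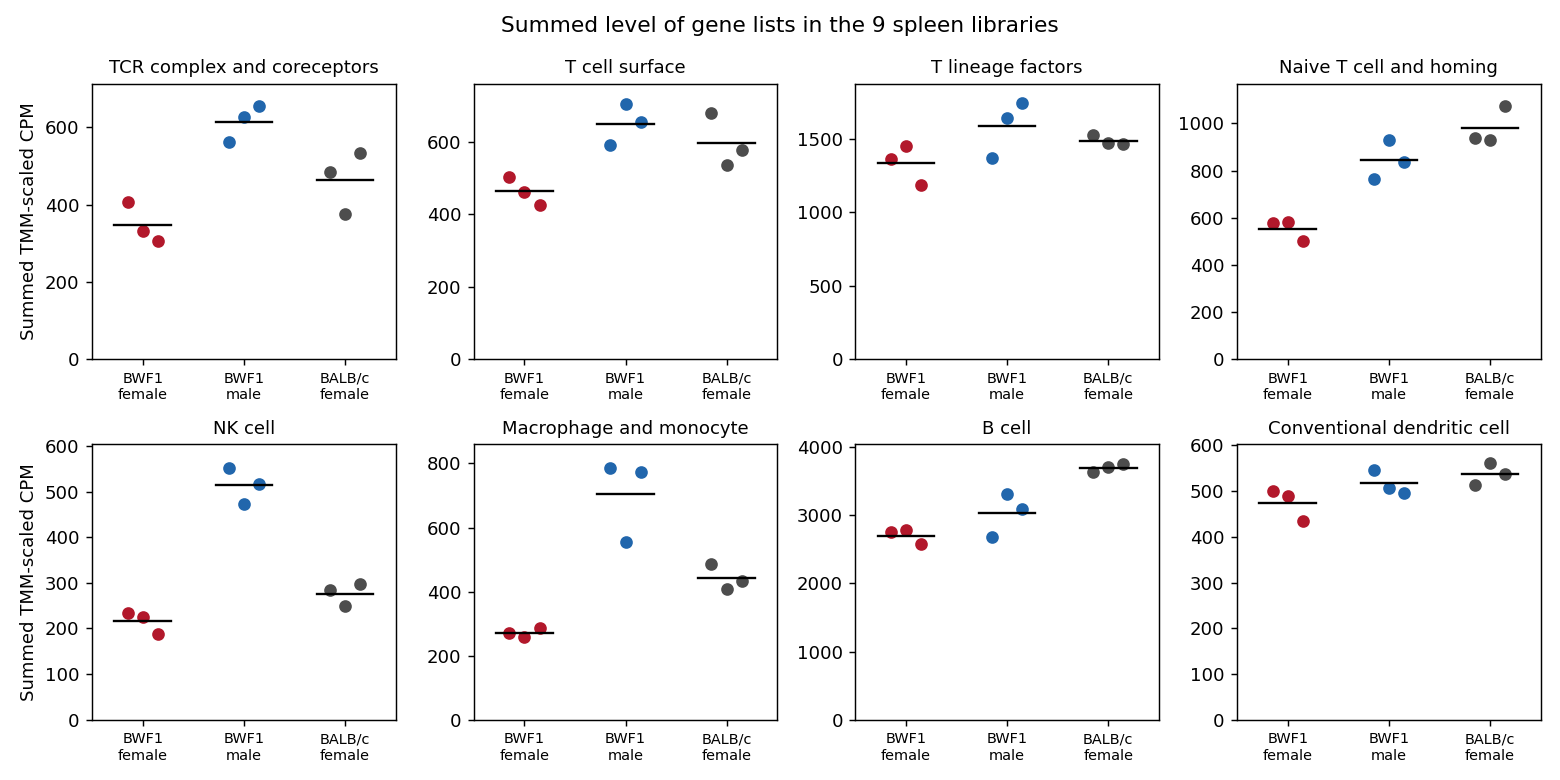
Summed level of 8 gene lists in each library, in TMM-scaled CPM on linear axes that start at 0, by group; points are libraries and horizontal bars group means. The 10 T cell receptor complex and coreceptor genes sum to 305.9 to 405.8 CPM in BWF1 females and 562.9 to 655.3 CPM in BWF1 males, and the natural killer list separates the same groups, while the conventional dendritic cell lists overlap.

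Across the 9 libraries, the log2 levels of Cd3d, Cd3e and Cd3g were averaged, and that mean was then standardised to give the CD3 pattern. Outside the 10, the standardised log2 levels of Eef1a1, Il6ra, F2r, Cdc42se1 and Npc2 followed it most closely, at root-mean-square distances of 0.271 to 0.302 SD. Among the 10, Cd3g (0.272), which is itself in that mean, and Cd8a (0.359) were nearest and Cd3d (1.21) was farthest, also in that mean, ranking 2941 of 7719 tested genes. Distances over 9 libraries in 3 groups follow the group differences given above and carry no test.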

How the data were processed

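Gene counts of 9 mouse spleen libraries were used. The authors deposited unnormalised counts of reads per gene, each file ending in HTSeq's summary lines. The submitters' processing notes list FastQC 0.10.1, STAR 2.6 and build mm10, with no role or order; annotation, strand setting and counted feature are not given in the sources used here. Ribosomal RNA was depleted, per the labels' protocols. Of 21965 identifiers, 21939 matched GENCODE M21, the source of names and coordinates. The series table and the single-library files differed in 0 values, and replicates of a group differed by a chi-square per degree of freedom of 1.41 to 19.5.

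Genes were filtered with filterByExpr (minimum count 10, 7719 kept), scaled by TMM and tested over all 9 libraries in R 4.3.3 with edgeR 4.0.16 (glmQLFit and glmQLFTest). P-values were adjusted by Benjamini and Hochberg and called under 0.05; an SE is the log2 fold change over the square root of F. The quasi-likelihood fit was run in both of its versions. The legacy fit with estimated dispersions came first and called 196, 291 and 484 genes and 6, 2 and 2 of the 10 genes, in the order BWF1 females against BWF1 males, BWF1 females against BALB/c females and BWF1 males against BALB/c females. The bias-adjusted fit (legacy = FALSE) was then chosen, after the calls of both were seen, because it gives the gene total of an earlier analysis of these data. It called 169, 295 and 272 genes and 6, 2 and 1 of the 10, and its values are reported.

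Count ratios within libraries used a pseudocount of 0.5 and exact two-sided permutation tests. Binomial intervals are exact (Clopper-Pearson, 95%), and all intervals on counts cover counting error only. Alternatives used DESeq2 1.42.0, limma 3.58.1, other scalings, filters and covariates, and each library left out. Fits were tested on simulated data. The 10 genes, the gene lists and the tests were chosen with earlier results of these data known. Named outside the 10 are at most 2 called genes with the lowest p per list, direction and comparison, and the 5 genes nearest the CD3 pattern; not every gene so allowed is printed, 1 result is not reported here, and the Itgam, Klra4 and Klra8 counts, Cxcr5 and Pou2f1 were added after values were seen.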

Additional observations from a re-analysis of the deposited data

How the results depend on the processing

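Counts of called genes among the 10 depended on the setting, and the causes were not tested. BWF1 females against BWF1 males had 6, but 2 with DESeq2, which gave an adjusted p to 3 of the 10, 2 on library size alone, and 2 to 6 with 1 library left out. BWF1 females against BALB/c females had 2, but 1 with DESeq2 or limma-voom and 1 to 3 with 1 library left out. BWF1 males against BALB/c females had 1, but 0 on library size alone, with robust dispersion or with the file name tag as covariate, 2 without Lars2, with limma-voom or with the legacy fit (added after seeing the data), and 0 to 2 with 1 library left out. Library size alone shifted the median of all genes by 0.16, −0.29 and −0.44 in these comparisons, and called 59, 130 and 274 genes with 45, 23 and 26 higher, against 169, 295 and 272 with 74, 138 and 129 higher under TMM. Over all genes the legacy fit called 484 and limma-voom 650 in BWF1 males against BALB/c females.

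Same-numbered libraries correlated at −0.0912 to 0.0589 in their deviations from group means, so the numbers share nothing that can be seen. With the replicate number as a block, 5, 2 and 1 of the 10 were called and 118, 255 and 240 of all genes; Cd3e lost its call against BWF1 males (adjusted p = 0.0508).

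Sign changes were limited to fold changes that were not called. In BWF1 females against BWF1 males, Cd3d became 0.033 on library size alone and 0.00433 without BWF1 female 2. In BWF1 females against BALB/c females, library size alone gave −0.12 for Cd3d and −0.255 for Cd28, the tag covariate −0.18 for Cd3d and 0.216 for Themis, and no filter −0.0261 for Cd28. With 1 library left out there, Lck ran from −0.307 to 0.185 (0.0834 without BALB/c female 3), Cd28 from −0.253 to 0.225 (−0.0722 and −0.0149 without BWF1 females 2 and 1), and Themis from −0.347 to 0.183 (0.0941 without BWF1 female 3). In BWF1 males against BALB/c females, library size alone gave −0.153 for Cd3d, −0.167 for Cd3e, −0.0606 for Cd4 and −0.218 for Lck, the tag covariate −0.0222 for Cd3d, and limma-voom 0.0342 for Cd3g, which became 0.00198 or 0.141 with 1 library left out. The log2 ratio of Cd4 to the CD3 genes in BWF1 females against BWF1 males ran from −0.154 to 0.142 with 1 library left out (0.0464 without BWF1 male 2) and was 0.233 within tag RL; against BALB/c females it was −0.265 within tag ORIG. The F statistic of the Cd4 to CD8 ratio over 3 groups was 5.94 with Cd8a alone and 2.35 to 19.5 with 1 library left out. Few counts limit BWF1 females most: 3 counts there stood at 4.84 to 6.62 CPM.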
